A study of Mus musculus with 9 samples.

Results

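The regions described here are stretches of DNA that carried more H3K27me3 in the WENRC culture than in the RANKL culture, lay between genes and were more than 50 kb from the nearest transcription start site (TSS). They were taken from the authors' deposited table of WENRC-higher regions by its annotation column (intergenic), its distance column and a chromosome from 1 to 19. The rule kept 3559 of 13607 regions (26.2%), which is 48.3% of the 7363 intergenic regions of these chromosomes, and they covered 2.02 Mb. The tags that placed a region in the table are those of H3K27me3 itself, so the tag values and folds below describe the choice and carry no test.

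The study grew organoids (mini-guts) from mouse duodenum in 3 cultures, called RANKL, ENRI and WENRC as in the labels, which give their cell types as intestinal M cell, enterocyte and intestinal stem cell. No genotype, strain, age or culture composition is given in the labels, and the abbreviations are not spelled out there. For H3K27me3 there were 2 ChIP-seq libraries of RANKL, which the authors pooled (32.7 M tags) and 1 of WENRC (36.3 M tags), so the mark has no replicate check. Nascent transcription was measured by GRO-seq, a run-on method that sequences RNA still being elongated, in 2 libraries of each culture. Per the labels, the ENRI and WENRC libraries pair by mouse (mouse 1 and mouse 2), while the RANKL libraries carry a replicate number only. The RANKL GRO-seq libraries combine reads of a repeat sequencing, per the file header, and the ENRI and WENRC libraries do not, so that sequencing and culture cannot be told apart. In the limma fit of the GRO-seq values over all genes, 8 of 9 M cell markers were higher in RANKL than in WENRC. Of 8 stem cell markers 1 (Lgr5) was lower and 1 higher in RANKL, and 4 of 6 enterocyte markers were also higher there. Of 5 general epithelial markers 0 were higher and 1 was lower. The mesenchymal markers (0 of 5) did not reach the level needed for a test in any culture.

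H3K27me3 is trimethylation of lysine 27 of histone H3. It is written by the Polycomb repressive complex PRC2, whose catalytic subunit is EZH1 or EZH2, and it is read by other Polycomb complexes that compact chromatin. Its best known sites are CpG-rich promoters of silent developmental genes, but it also spreads at low density over gene-poor DNA, where it can cover silent enhancers and repeats. In the gut lining, PRC2 is known for keeping genes of other lineages silent in dividing crypt cells and for restraining differentiation genes. RANKL is also the name of the cytokine that drives M cell differentiation.

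The 3559 regions had 1685 nearest genes in the authors' annotation. Of the regions, 73.8% were nearest to a protein-coding gene and 25.1% to a noncoding RNA gene. MicroRNA genes, which encode short RNAs that lower the output of target mRNAs through a seed at bases 2 to 8, were the nearest gene of 132 regions (3.71%). The corresponding share was 2.73% among the 5095 RANKL-higher regions chosen by the same distance and annotation. Of these 54 microRNA genes, 39 were matched by symbol to RefSeq (GRCm38.p6). The mature products of the 3 with most regions are shown because these were the microRNA genes nearest to the most regions. The seed is in capitals, and the 5 seeds all differ.
mmu-miR-467h: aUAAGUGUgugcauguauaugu
mmu-miR-3090-5p: gUCUGGGUggggccugagauc
mmu-miR-3090-3p: uCCCAGGUgacacccugacuca
mmu-miR-148a-3p: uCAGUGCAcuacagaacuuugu
mmu-miR-148a-5p: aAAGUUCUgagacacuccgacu

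Mir467h was the nearest gene of 13 regions, at 111 to 256 kb from its start, and these held 309.6 WENRC tags (scaled to RANKL depth) against 87 RANKL tags. Mir3090 had 11 regions at 53.2 to 338 kb, with 248.4 against 56 tags. Mir148a had 10 regions at 53.7 to 232 kb, with 385.2 against 132 tags, and it also had a WENRC-higher region at its own start (within 5 kb). Mir467h was listed at 0 in all 6 GRO-seq libraries, and Mir148a and Mir3090 stayed below the level needed for a test (highest log2 values 0.64 and 1.95). The primary transcript of a microRNA is longer than the hairpin over which these values were summed.

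A typical region was small and its contrast rested on few tags. The WENRC signal had a median of 20.7 tags per region (lowest 14.4, highest 235) after the authors' scaling by 0.9, and RANKL had a median of 6 tags (highest 83). At such counts sampling alone is wide: a Poisson 95% interval runs from 2.20 to 13.1 around 6 RANKL tags and from 13.1 to 31.1 around the WENRC median. In the authors' deposited table the fold of WENRC over RANKL had a median of 3.45, with quartiles of 3 and 4.32. A fold of at least 4 was reached by 1141 regions (32.1%), a fold of at least 10 by 61 regions, and 126 regions had a fold under 2.5.

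The length was 500 bp in 2820 regions (79.2%), and 111 (3.12%) were longer than 1 kb. Per 500 bp, the median was 19.8 tags in WENRC and 5.57 in RANKL. The mean RANKL level over the whole span of chromosomes 1 to 19 and X (2633 Mb) was 6.21 tags per 500 bp. The RANKL level was at or under that mean in 2537 regions (71.3%), with a median of 0.896 times the mean, while WENRC stood at a median of 3.19 times the mean. Most regions were thus places where RANKL tags were near the genome's average density and WENRC tags stood above it.

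**Figure D1:**
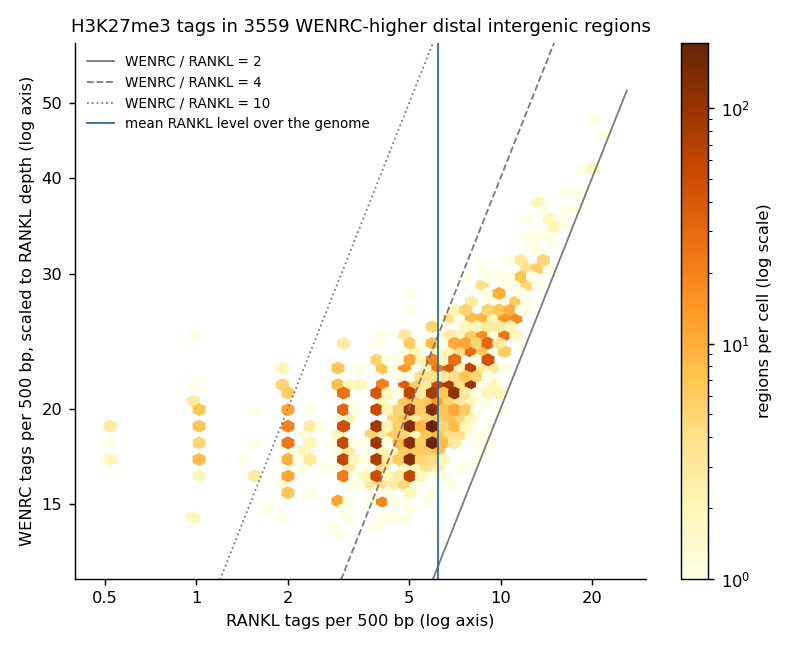
Tags per 500 bp in the 3559 WENRC-higher distal intergenic regions, with pooled RANKL on the x axis and WENRC, scaled to RANKL depth, on the y axis (both log axes), colour giving the number of regions per cell and grey lines folds of 2, 4 and 10. Most regions lie left of the blue line, the mean RANKL level over the genome (6.21), and the WENRC level is near 20 tags over most of the plot.

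The mirror set, RANKL-higher intergenic regions beyond 50 kb, had a lower fold and longer regions. Its median fold was 3.02, and 15.5% of its regions reached a fold of at least 4. Its regions were 500 bp long in 61.4% of cases and longer than 1 kb in 611 cases. Per 500 bp its medians were 22 RANKL and 7.2 WENRC tags, and 27.9% of its regions had the lower culture at or under the mean. Both sets passed the same threshold in opposite directions, so these shares describe what the threshold selected and are not compared by a test. WENRC-higher intergenic regions at 5 to 50 kb from a TSS (3261 regions) had a median fold of 3.30, and 25.3% of them reached a fold of at least 4.

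Among regions with RANKL above the deposited floor of 0.5 tags, the largest folds came from regions with a single RANKL tag. The region at chr4:31135089-31135589 (mm9, as all coordinates here), 544 kb downstream of the start of 4930556G01Rik, had 25.2 WENRC tags and 1 RANKL tag, a ratio of 25.2 with an exact 95% counting interval from 4.17 to 1030. One at chr13:57461478-57461978, 465 kb upstream of Trpc7 (a cation channel), had 21.6 tags against 1 (interval 3.52 to 888). One at chr13:10740681-10741181, in an ERVK repeat 381 kb upstream of the muscarinic receptor gene Chrm3, had 20.7 against 1. The other 9 with 1 RANKL tag that shared the next places had 19.8 or 20.7 WENRC tags, and they included regions near Efnb2 (an ephrin), Slc10a2 (the ileal bile acid transporter), Lrig3 and Mir21b. Their intervals all started at 3.20 or more, but these regions were picked for their folds, and the intervals do not allow for that choice. In a further 6 regions, among them 1 nearest to Kl, 1 nearest to Setbp1 and 1 nearest to Pcdh20, RANKL was listed at the floor. They had 17.1 to 18.9 WENRC tags, and their deposited folds of 34.2 to 37.8 were set by the floor of 0.5.

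The longest regions held far more tags and had moderate folds. The longest, 5180 bp at chr1:63950108-63955288, lay 58.6 kb upstream of Gm13749 and overlapped an Lx9 element of the L1 family. It had 235 WENRC and 83 RANKL tags, a fold of 2.83 (exact 95% counting interval 2.20 to 3.67). A region of 4581 bp at chr1:186895223-186899804, 74.1 kb upstream of Mark1 (a kinase that acts on microtubule-associated proteins), had 235 against 59 tags, a fold of 3.98 (2.99 to 5.38). It had the lowest authors' p of all members, 3.36e-66. The next 3 were nearest to Habp2, Gm536 and Smarcad1 (a chromatin remodeller), with folds of 2.86, 2.67 and 3.54. In all 5 the interval began at 1.93 or higher, which covers counting error and not the spread between cultures.

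Distance to the nearest start had a median of 115511 bp, and 2043 regions (57.4%) were beyond 100 kb. Regions were as often upstream as downstream of that start, with 49.6% upstream. RANKL-higher regions at the same distance, beyond 50 kb, were upstream in 48.1% of cases. Nearer to a start, at 5 to 50 kb, WENRC-higher regions were upstream in 71.7%. The intergenic annotation leaves out gene bodies, which lie downstream of a start, so the shares of the 2 distance classes are not alike in what they count. From 50 to 100 kb there were 1516 regions with a median fold of 3.42, from 100 to 250 kb 1490 with 3.45, from 250 to 500 kb 450 with 3.60, and beyond 500 kb 103 with 4.28. RANKL tags had a median of 6 in the first 3 classes and of 4 in the last. The most remote region lay 1794 kb upstream of Cntnap5a, a neuronal adhesion gene, with 20.7 WENRC and 5 RANKL tags. The next 2 lay 1776 kb upstream of Slc10a2 and 1653 kb downstream of Pla2g4a.

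At the limit of the rule, the 3 regions just inside were 50.058, 50.061 and 50.107 kb from the starts of A730082K24Rik, 1810046K07Rik and Mir874, with 22.5 against 3, 18.9 against 2 and 17.1 against 5 tags. Just outside, at 49.972, 49.946 and 49.896 kb from Ccdc39, 3110039I08Rik and 5930412G12Rik, the values were 17.1 against 5, 19.8 against 1 and 45 against 11. The values on both sides of the limit overlapped.

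The rule did not use the repeat annotation. Of the regions, 1148 (32.3%, exact 95% interval 30.7 to 33.8), were annotated in a repeat. The share was 39.6% (37.9 to 41.3) for WENRC-higher regions at 5 to 50 kb and 27.8% (26.6 to 29.1) for RANKL-higher regions beyond 50 kb. These intervals do not overlap, but they cover counting error only and treat neighbouring regions as independent. L1 elements, the active LINE retrotransposons of mouse and their older relatives, were the most frequent family, with 395 regions (11.1%, 10.1 to 12.2). Their share was 10.5% (9.49 to 11.6) at 5 to 50 kb and 6.38% (5.72 to 7.08) in the RANKL-higher set.

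Within L1, the older mouse subfamilies Lx8 (40 regions), Lx9 (37) and Lx7 (35) were the most frequent, against 33, 21 and 14 in the larger RANKL-higher set. The SINE subfamily B4A showed the other order, with 36 against 66. LTR elements held 9.97% of the regions (RANKL-higher 9.19%), of which MaLR elements made up 5.34% and ERVK elements 2.95%. SINEs held 6.13%, beside 6.12% in the RANKL-higher set and 10.3% at 5 to 50 kb. DNA transposons held 1.80% (1.39 to 2.29) against 0.707% (0.495 to 0.977). Low-complexity DNA held 0.534% against 1.41%, and CpG islands held 1 region against 22. The median fold was 3.42 outside repeats, 3.60 in LINEs, 3.60 in LTR elements and 3.42 in SINEs.

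**Figure D2:**
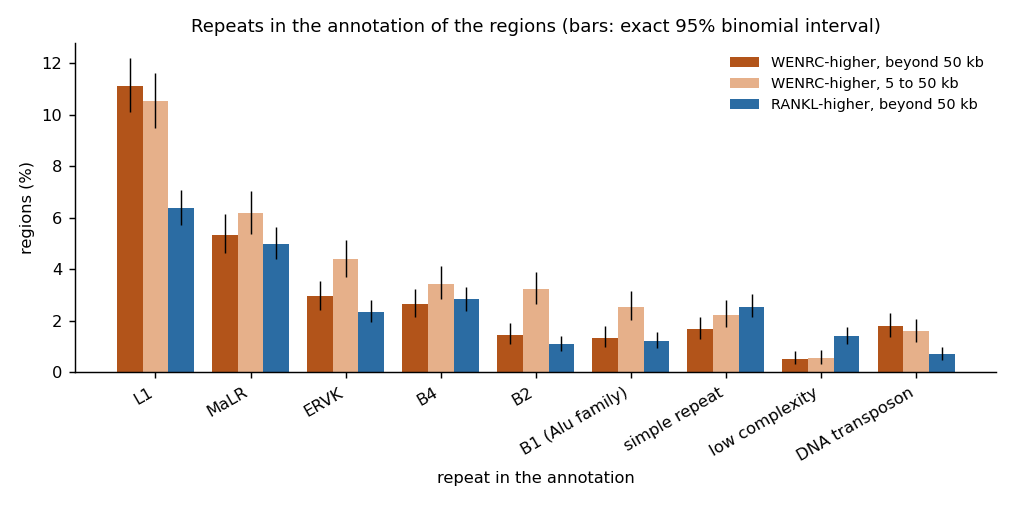
Share of regions (y axis, %) annotated in each repeat family (x axis) for the 3559 WENRC-higher regions beyond 50 kb, the 3261 at 5 to 50 kb and the 5095 RANKL-higher regions beyond 50 kb, with exact 95% binomial intervals as black lines. L1 is the highest family in all 3 sets, at 11.1%, 10.5% and 6.38%.

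Across chromosomes the regions had a density of 1.44 per Mb, against 2.07 per Mb for RANKL-higher regions, a ratio of 0.699. Chromosomes 9, 8 and 13 were the densest at 2.298, 2.17 and 2.15 per Mb, and chromosome 7 the least dense at 0.820. On chromosome 7 RANKL-higher regions had 2.45 per Mb. The order turned on 4 chromosomes: chromosome 10 had 165 WENRC-higher and 116 RANKL-higher regions, chromosome 18 153 and 115, chromosome 12 196 and 164, and chromosome 3 226 and 204. Chromosome 7 had 125 and 373. With 1 WENRC library these densities have no replicate error.

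**Figure D3:**
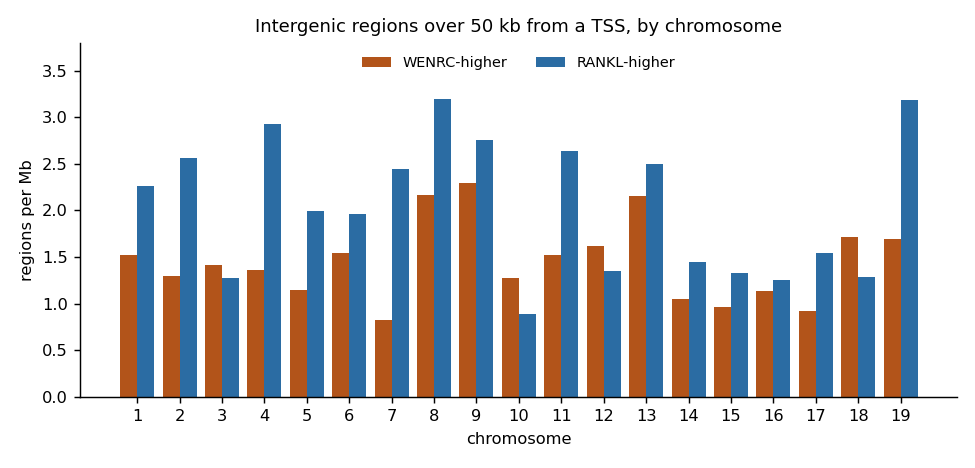
Regions per Mb (y axis) on each autosome (x axis) for WENRC-higher and RANKL-higher intergenic regions beyond 50 kb. RANKL-higher bars are the taller except on chromosomes 3, 10, 12 and 18.

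Most regions stood alone. Joined across gaps of up to 10 kb they formed 2934 groups, and 2526 regions (71.0%) had no other within that gap, whereas this held for 36.8% of the RANKL-higher regions. Groups of 5 or more numbered 21, with at most 16 regions, against 169 with at most 34 in the RANKL-higher set. The median distance to the next region of the same kind was 30.7 kb, against 5.09 kb. Of 1178 windows of 1 Mb with a WENRC-higher region, 738 (62.6%) also held a RANKL-higher one, which is 74.8% of the 987 windows with such a region. The share of all windows that held a RANKL-higher region was not computed, so these shares have no background beside them. Over the 1427 windows with either kind, the counts had a Pearson r of 0.211. Windows with neither kind were left out of it. It is given as a description, since both sets come from the same libraries. Counting RANKL-higher regions of any annotation and distance, 1 lay within 1 kb of 98 regions (2.75%), within 10 kb of 667 (18.7%) and within 50 kb of 1697 (47.7%). Overlap with such a RANKL-higher region was seen for 6 regions.

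The 6 largest groups each held 0 RANKL-higher regions between their ends, and among their flanking genes were Atoh1, Nr5a2 and Klf4, known as regulators of the gut epithelium. The largest, 16 regions over chr13:112874766-112929385, had 326.7 WENRC and 90 RANKL tags and ended 149 kb short of Ankrd55. The second, 10 regions over chr6:64892830-64930771 with 424.8 against 106 tags, lay between Atoh1, the transcription factor that commits cells to the secretory lineage (212 kb away), and Smarcad1 (61.9 kb). Atoh1 transcription was low in all cultures, with GRO-seq log2 values between 3.77 and 4.25 in the 6 libraries and overlapping cultures. The next 3 groups held 8 regions each.

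The first of these, chr1:138978921-139015580, lay 122 kb from Nr5a2, a nuclear receptor of the crypt, with 187.2 against 57 tags. The second, chr4:55607977-55647788, lay 62.6 kb from Klf4, a factor of differentiated and goblet cells, with 313.2 against 120 tags. The third, chr5:107493921-107519434, lay between Cdc7, a kinase that starts DNA replication (80.5 kb), and Tgfbr3, a TGF-beta co-receptor (16.2 kb from its 3′ end), with 304.2 against 107 tags. The sixth group, 7 regions over chr8:27737957-27759069, was nearest to the noncoding gene 2310008N11Rik. Of the flanking genes named, none was called between RANKL and WENRC by limma over all genes: adjusted p was 0.33 for Nr5a2, 0.59 for Klf4, 0.16 for Cdc7, 0.11 for Tgfbr3, 0.86 for Smarcad1 and 0.56 for Atoh1.

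On the scale of 1 Mb, 46 windows held 10 or more regions and together 664 of them (18.7%). For the genes in and around such windows, GRO-seq is a readout the rule did not use. Calls were made with limma, fitted on all 6 libraries and all 16563 genes tested, where the adjusted p (false discovery rate) was under 0.05. Of all genes tested, 12.1% were called between RANKL and WENRC, 8.53% as higher and 3.62% as lower in RANKL. Of 227 tested genes that overlap the 46 windows, 42 (18.5%) were called, 31 higher and 11 lower in RANKL, with a median log2 difference of 0.02. In the 1132 windows with 1 to 9 regions, 729 of 6341 tested genes (11.5%) were called. Genes of 1 window are neighbours, so no test is given for these shares. In such bulk values a change in the number of cells of a type and a change in transcription per cell cannot be told apart.

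The 5 windows with most regions held 27 tested genes, of which 8 were called, all of them higher in RANKL. They came from 3 windows, and the other 2 had no call. These windows were picked by their regions; the genes inside them were looked at after the windows were known.

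The window chr1:186000001-187000000 held 27 regions with 1011.7 WENRC and 302 RANKL tags, and also 12 RANKL-higher distal regions. All 4 of its tested genes were higher in RANKL. Mark1, with 7 of the regions, had log2 values of 7.09 and 6.75 in RANKL, 4.57 and 5.29 in ENRI and 4.23 and 5.15 in WENRC, a difference of 2.23 ± 0.39 (SE; limma adjusted p 0.020). C130074G19Rik had 10.9 and 11.0 in RANKL, 9.41 and 9.37 in ENRI and 8.17 and 8.06 in WENRC, a difference of 2.84 ± 0.13 (adjusted p 0.0012). For both genes each RANKL library was above every other library.

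Marc1 and Marc2, neighbouring genes for mitochondrial molybdenum enzymes, were also higher in RANKL than in WENRC, by 1.43 ± 0.25 and 1.37 ± 0.29 (limma adjusted p 0.021 and 0.036). Here the enterocyte culture was the highest: Marc2 had 11.5 and 12.4 in ENRI, 11.2 and 11.2 in RANKL and 9.96 and 9.66 in WENRC. Among the untested genes of this window were Hlx, a homeobox gene, and the noncoding gene 1700112H15Rik, which was nearest to 15 regions.

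The window chr13:112000001-113000000 held 25 WENRC-higher and 2 RANKL-higher distal regions, with 549.9 against 146 tags. Its 3 tested genes were all higher in RANKL. Mier3, a gene for a partner of histone deacetylases, had 9.63 and 9.74 in RANKL, 8.97 and 8.78 in ENRI and 8.39 and 8.50 in WENRC, a difference of 1.24 ± 0.14 (limma adjusted p 0.0068). Map3k1, a kinase upstream of JNK, differed by 0.66 ± 0.16 and the promoter-binding protein gene Gpbp1 by 0.60 ± 0.14, near the threshold (adjusted p 0.049 and 0.043). Ankrd55, to which 18 of the regions were nearest, lay outside the window and was not called.

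The 2 windows on chromosome 9 and the one on chromosome 8 differed from these. In chr9:61000001-62000000 there were 24 WENRC-higher and 19 RANKL-higher distal regions, and 1 of 5 tested genes, Tle3, was called. In chr9:115000001-116000000 there were 25 WENRC-higher and 0 RANKL-higher distal regions between Stt3b and Gadl1, 13 of them nearest to Mir467h, with 620.1 against 177 tags, and none of 6 tested genes was called. Gadl1 had 8.09 and 8.08 in RANKL, 6.93 and 8.07 in ENRI and 7.31 and 7.32 in WENRC (limma adjusted p 0.22), and Tgfbr2, a TGF-beta receptor gene, had a difference of -0.76 ± 0.41. The densest window, chr8:27000001-28000000, had 35 regions with 1123.2 WENRC and 398 RANKL tags, and 0 of its 9 tested genes was called (log2 median -0.08).

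**Figure D4:**
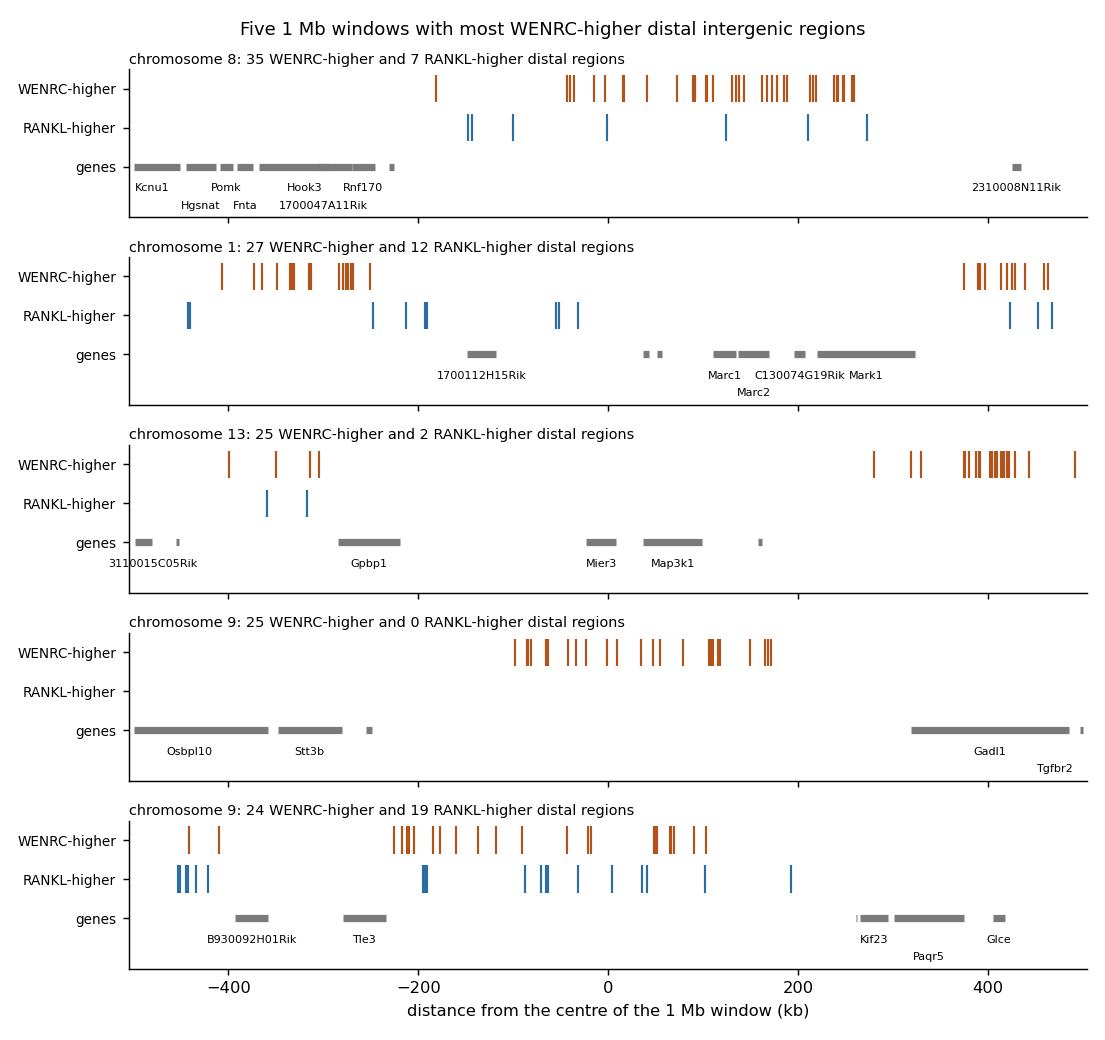
The 5 windows of 1 Mb with most WENRC-higher distal regions, drawn to scale as distance in kb from the window's centre (x axis), with WENRC-higher distal regions, RANKL-higher distal regions and genes of the GRO-seq table in rows and some gene names left out where they would overlap. The regions lie in gene-free stretches, with 35, 27, 25, 25 and 24 WENRC-higher regions per window.

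Of the 1685 nearest genes, 1640 were in the GRO-seq table and 1125 were transcribed at a level that could be tested. The nearest gene was not tested for 1132 regions (31.8%). In the limma fit over all genes, 152 of the 1125 (13.5%) were called between RANKL and WENRC, 99 (8.80%) as higher in RANKL and 53 (4.71%) as lower. Beside the background of 12.1%, 8.53% and 3.62%, these shares were close to those of all genes. The median log2 difference was 0.00, beside -0.01 over all genes. No common direction was seen, with a positive difference in 50.3% of the 1125. Nearest genes of RANKL-higher distal regions were called in 139 of 1010 cases (13.8%), and those of WENRC-higher regions at 5 to 50 kb in 222 of 1469 (15.1%). Under quantile scaling 83 of the nearest genes were called higher and 80 lower, and after recentring on the upper quartile, which moved the median of all genes from -0.01 to -0.12 and that of the nearest genes to -0.11, 83 and 86. Without either RANKL library limma called 0 of them (189 or 182 at an unadjusted p under 0.05), without either WENRC library 24 or 22, and the authors' deposited table called 353. The distal sets shared 800 nearest genes, 47.5% of the 1685 here and 52.2% of the 1534 of the RANKL-higher set. The GRO-seq table holds 24505 genes. Genes with no intergenic DNA beyond 50 kb of their start could be in neither set, so this overlap has no background share here. The p-values measure only the spread between these libraries, since nothing in the labels says that the RANKL libraries come from separate cultures.

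The share called varied with the number and distance of the regions. It was 67 of 615 (10.9%) for genes with 1 region and 85 of 510 (16.7%) for genes with 2 or more. It was 6 of 21 for genes with 10 or more. Genes with every region beyond 100 kb were called in 43 of 440 cases (9.77%), and genes with a region within 100 kb in 109 of 685 (15.9%). These differences were not tested.

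The mark near the start of these genes differed with the direction of the call. These start regions come from the same H3K27me3 libraries and contrast as the members, so they are not an independent readout. Of the 99 nearest genes higher in RANKL, 18 (18.2%) had a WENRC-higher region near the start (up to 5 kb) and 14 (14.1%) a RANKL-higher one. Of the 53 lower in RANKL, 2 (3.77%) had a WENRC-higher region there and 27 (50.9%) a RANKL-higher one. Among the 973 not called the counts were 92 (9.46%) and 250 (25.7%). The differences between these shares were not tested. In all, 162 nearest genes (9.61%) also had a WENRC-higher region near the start. Of the 112 of these that were tested, 18 were higher (16.1%) and 2 lower (1.79%) in RANKL. Over all 777 tested genes with a WENRC-higher region near the start the shares were alike, 158 higher (20.3%) and 13 lower (1.67%).

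The 12 genes with 14 or more regions each include the noncoding genes 2310008N11Rik (23 regions) and BC006965 (16), and Ankrd55 (21), all at log2 values of 5.52 or less in every library. Fut8 (19), which adds core fucose to glycoproteins, Sash1 (17), a scaffold gene, and Pcsk5 (15), a proprotein convertase, were transcribed in all cultures at 10 or above and were not called. Klf4 had 18 regions, all upstream at 63.0 to 435 kb, and also 33 RANKL-higher distal regions. It had a WENRC-higher region near its own start (up to 5 kb) as well. Its values were 7.52 and 7.48 in RANKL, 8.89 and 9.74 in ENRI and 7.55 and 8.03 in WENRC. The RANKL and WENRC values differed by -0.29 ± 0.31 (SE), within the error, and the ENRI libraries were the highest.

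Of the 12, 3 were called. Gphn, for the synaptic scaffold and molybdenum cofactor enzyme gephyrin, had 15 regions, all upstream at 50.7 to 299 kb. Its values were 13.7 and 14.1 in RANKL, 12.04 and 11.85 in ENRI and 12.5 and 12.4 in WENRC, a rise of 1.44 ± 0.20 (limma adjusted p 0.011), which was 0.72 under quantile scaling (adjusted p 0.031). Tle3, a Groucho co-repressor of Wnt targets, had 14 regions and values of 11.4 and 11.5 in RANKL, 9.78 and 10.1 in ENRI and 10.17 and 10.04 in WENRC, a rise of 1.33 ± 0.17 (adjusted p 0.0081). For both, the RANKL libraries stood above all others. Tox3, an HMG-box factor gene, had 14 regions and was lower, with 9.67 and 9.70 in RANKL, 9.79 and 9.35 in ENRI and 10.8 and 10.4 in WENRC (-0.92 ± 0.21, adjusted p 0.041; 0.051 without the filter). Nr5a2, with 14 regions, had a difference of 0.49 ± 0.29.

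The nearest genes with the largest rises in RANKL did different kinds of work, and each had 1 to 4 regions. Reg3g, a lectin that kills Gram-positive bacteria, had 3 regions 78.6 to 105 kb upstream with 58.5 against 15 tags. Its values were 9.29 and 9.44 in RANKL, 7.20 and 6.97 in ENRI and 4.08 and 4.55 in WENRC, a difference of 5.05 ± 0.22 (limma adjusted p 0.0012). The cultures did not overlap, with ENRI in between. Slc1a3, a glutamate transporter, had 9.61 and 9.74 in RANKL, 3.76 and 5.32 in ENRI and 4.99 and 6.55 in WENRC (3.90 ± 0.66, limma adjusted p 0.018). In ENRI and in WENRC mouse 2 was the higher library, and the difference from RANKL was 3.13 to 4.68 with 1 WENRC library left out. Mreg (melanoregulin, of organelle transport) had 9.72 and 9.79 in RANKL, 5.32 and 5.36 in ENRI and 6.62 and 7.13 in WENRC (2.89 ± 0.21, adjusted p 0.0020), and its 2 regions had folds of 4.14 and 10.8.

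Bmp2, a ligand that restrains crypt stem cells and is made more toward the villus, had 3 regions at 213 to 243 kb upstream with 57.6 against 16 tags. It had 9.69 and 9.74 in RANKL, 8.82 and 8.16 in ENRI and 6.90 and 7.04 in WENRC, a rise of 2.74 ± 0.23 (limma adjusted p 0.0032). Rbbp8, which starts DNA end resection, rose by 2.53 ± 0.14, and Btbd11 by 3.78 ± 0.23. Myom2, Car8, Gas7 and Kif26a rose by 3.70, 3.23, 2.71 and 2.504. Gas7 ranged from 1.91 to 3.52 with 1 WENRC library left out, and it was not called after recentring on the upper quartile (limma adjusted p 0.053) or in the authors' deposited table (0.062). The deposited log2 differences were larger for several of these genes: the authors' deposited table gives 7.30 for Reg3g, 5.96 for Myom2 and 4.51 for Kif26a. Of these 10, Slc1a3, Myom2, Mreg and Bmp2 also had a WENRC-higher region near the start, and Btbd11, Gas7 and Kif26a had a RANKL-higher one. Btbd11, Gas7 and Kif26a, with 1 WENRC-higher distal region each, were also nearest to 4, 6 and 12 RANKL-higher distal regions. The other genes of the 10 had 0 of these.

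The largest fall was that of Lgr5, the receptor that marks crypt stem cells. It had 2 WENRC-higher regions 93.4 and 94.7 kb upstream, with 50.4 against 17 tags, and 1 RANKL-higher distal region. Its values were 8.75 and 8.84 in RANKL, 8.89 and 8.51 in ENRI and 11.64 and 11.99 in WENRC, a difference of -3.02 ± 0.19 (limma adjusted p 0.0017). The WENRC libraries stood apart, and RANKL and ENRI overlapped. Slit2, an axon guidance ligand, had 2 remote regions, 588 and 943 kb upstream, with 36.9 against 4 tags. It had 8.24 and 8.12 in RANKL, 9.69 and 9.57 in ENRI and 10.2 and 10.2 in WENRC (-2.03 ± 0.13, adjusted p 0.0017), with the 3 cultures apart.

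Crnde, a noncoding RNA gene beside Irx5, had 6 regions and a difference of -2.40 ± 0.20 (limma adjusted p 0.0027), and Cadm1, a cell adhesion gene, had 5 regions and -1.86 ± 0.38 (adjusted p 0.031). Stc2, a secreted glycoprotein gene, and Cth, of cysteine synthesis, differed by -2.11 and -2.07. Setbp1, Zc3h12c, Zfp503 and Lipg (endothelial lipase) differed by -2.04, -2.17, -1.75 and -1.72 (limma adjusted p 0.037, 0.049, 0.040 and 0.049). Zc3h12c and Lipg were not called with the replicate block (adjusted p 0.051 and 0.062), under quantile scaling (0.056 and 0.063) or without the filter (0.058 for both), and Zfp503 not under quantile scaling (0.056). Of the 10 falls, 8 had a RANKL-higher region near the start (the exceptions were Stc2 and Cth) and 0 had a WENRC-higher one there. That their listed distal regions were WENRC-higher was fixed by the rule. RANKL-higher distal regions were also nearest to Crnde (5), Zc3h12c (5), Cadm1 (4), Cth (2), Stc2 (1) and Lgr5 (1). Setbp1, Slit2, Zfp503 and Lipg had 0.

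**Figure D5:**
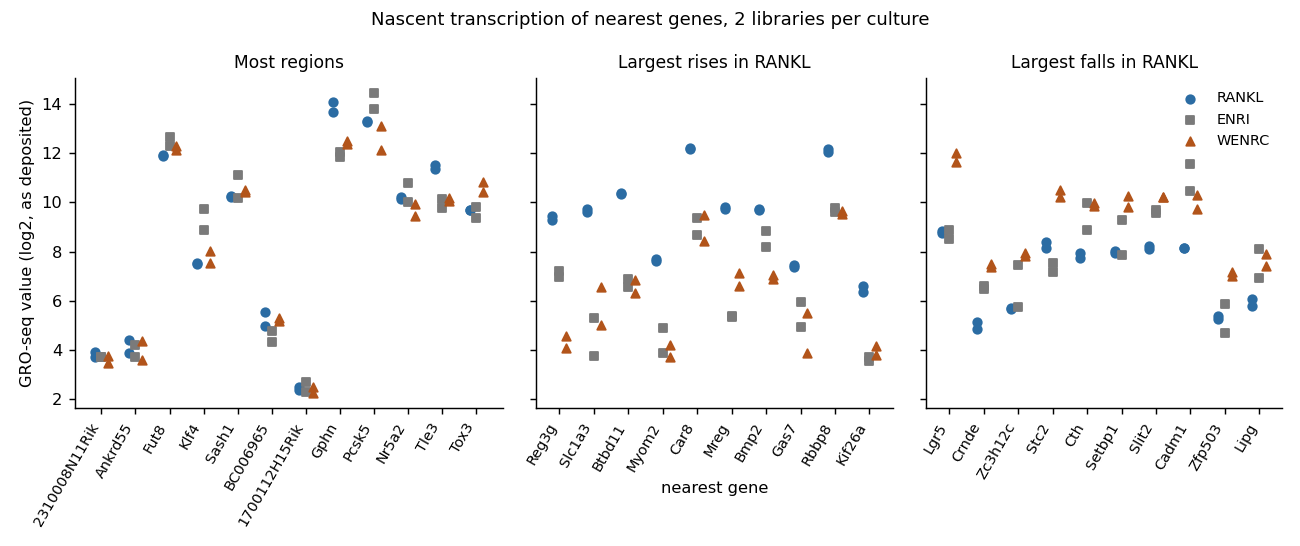
GRO-seq values (y axis, log2 as deposited) of the nearest genes with most regions, the largest rises and the largest falls in RANKL (x axis, gene), with 1 point per library and 2 libraries per culture. Among the genes with most regions the cultures mostly lie close together, and for Lgr5 the RANKL and ENRI libraries lie together near 8.8 below WENRC near 11.8.

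Lists of genes by role were compared with the nearest genes. No gene of the M cell list (19 tested) or of the enterocyte list (12 tested) was the nearest gene of a region. Of all 16563 genes tested, only 1125 were nearest genes, so an absence from such short lists is not a result about them. Of the M cell list, 14 tested members were higher in RANKL. The RANKL-higher distal set had 1 M cell gene (3 regions) and 0 enterocyte genes. From the stem cell list (16 tested) 4 genes were nearest genes, with 7 regions (0.197%): Lgr5, Olfm4, Cdca7 and Slc12a2. The RANKL-higher distal set also had 4 stem cell genes, with 5 regions (0.0981%). Cdca7 had 3 regions and values of 8.11 and 7.91 in RANKL against 9.05 and 8.94 in WENRC (-0.99 ± 0.29, limma adjusted p 0.085). Olfm4, another crypt base marker, had the opposite order, 10.9 and 11.0 in RANKL, 5.14 and 7.41 in ENRI and 8.83 and 9.12 in WENRC, and was not called (1.998 ± 0.67, limma adjusted p 0.11). For both genes the RANKL and WENRC libraries did not overlap, while the ENRI libraries, which enter the shared error, differed by more than 2 for Olfm4. Both genes were called with only the RANKL and WENRC libraries (limma adjusted p 9.6e-05 for Olfm4 and 0.0016 for Cdca7), without either ENRI library and in the authors' deposited table. Slc12a2, a chloride cotransporter, differed by -0.34 ± 0.51.

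Of the PRC2 list, Aebp2, an accessory subunit, was nearest to 2 WENRC-higher and 25 RANKL-higher distal regions. Its values were 10.9 and 10.8 in RANKL, 10.2 and 9.66 in ENRI and 10.4 and 10.3 in WENRC (0.48 ± 0.20, limma adjusted p 0.17). Of the 13 tested genes of that list 3 were higher in RANKL and 0 lower, beside 8.53% and 3.62% of all genes tested. Aebp2 was called with only the RANKL and WENRC libraries (adjusted p 0.013), without either ENRI library (0.014) and in the authors' deposited table (0.0015).

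Homeobox, Sox, Fox and T-box factors, the classic Polycomb targets, were the nearest gene of 96 regions (2.70%, 41 genes) and of 275 RANKL-higher distal regions (5.40%, 49 genes). Of the 41 genes, among them Pax3, Meis1, Irx3 and Lhx9, 17 were transcribed enough for a test, 0 were higher in RANKL and 1 was lower. Over the whole list 12 were higher and 10 lower of 118 tested, beside 8.53% and 3.62% of all genes. Ion channel genes had 29 regions (0.815%, RANKL-higher 1.24%), transmitter receptor genes 26 (0.731% and 0.628%), neuronal adhesion genes 17 (0.478% and 0.451%) and cadherins 17 (0.478% and 0.471%). Zinc finger genes had 34 regions (RANKL-higher distal set: 51 regions). Of their 17 tested genes 2 were lower and 0 higher in RANKL, beside 9 lower and 14 higher of 380 tested over the whole list and 3.62% and 8.53% of all genes. Olfactory and vomeronasal receptor genes had 7 and 5 regions, and none of them was tested. Among the 11 tested neuronal adhesion genes 1 was higher, and among the tested cadherins (6), transmitter receptors (8) and ion channels (13) 0 were called. Over all genes tested the share called was 12.1%.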

How the data were processed

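Per the file headers, the authors summed GRO-seq reads over RefSeq genes of mm9 with HOMER and deposited normalized log2 values, for which no depth is given; the transform is not named and strand handling is not given in the sources used here, so reads of overlapping genes cannot be told apart. The deposited log2 fold changes, p-values and adjusted p-values are the authors' own for each pair of cultures. Bowtie2 2.3.4.1, HOMER, DESeq2 and mm9 are named in the submitters' processing notes. Per the file headers, the authors called H3K27me3 peaks of 1 culture with the other as control, so each table holds 1 direction. RANKL tags are whole counts as deposited, WENRC tags are a signal the authors scaled by 0.9 to the RANKL depth, with a floor of 0.5 where there was none. The deposited fold is the ratio of these tags (within 1% in 100% of the regions), and the deposited score of each peak was not used. Blank rows (12) were dropped.

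Members and gene lists were chosen with earlier results of these data known. The tests follow the unit: limma 3.58.1 (R 4.3.3) with a variance trend was run on the log2 values of all 6 libraries, with genes of at least log2 of 10 in 2 or more libraries, and its two-sided p-values received Benjamini-Hochberg adjustment over all genes tested. The ENRI and WENRC libraries of 1 mouse entered the fit as independent, although their deviations from the group means were correlated across genes (r = 0.41). The fit was also run on simulated libraries drawn independently of each other, so that run does not cover this correlation. Exact (Clopper-Pearson) 95% intervals cover counting error only. Groups of regions joined gaps up to 10 kb. Named regions are the 10 largest folds above the floor with ties, the 5 longest, the 3 farthest and the 3 on each side of the limit; named genes are the 10 with most regions with ties, the 10 largest called changes in each direction without overlap of RANKL and WENRC, and members of the M cell, stem and PRC2 lists. Genes of the named groups and windows, regions at the floor, the 3 microRNA genes with most regions and examples from gene lists were added after values were seen. Alternatives covered the libraries fitted, scaling, filter, block, tool, thresholds and distances. The genome sequence of mm9 was not used here, so no region sequence is shown.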

Additional observations from a re-analysis of the deposited data

How the results depend on the processing

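The counts of called nearest genes (152 by limma) and of all called genes (2012) moved together. With only the 4 RANKL and WENRC libraries they were 368 (32.7% of those tested) and 5194 (31.4%), and by the authors' deposited adjusted p 353 and 4604. Leaving out 1 library gave 0 to 366 nearest and 0 to 5176 of all genes: 0 and 0 without either RANKL library (limma; 189 and 2702, or 182 and 2486, at an unadjusted p under 0.05), 24 and 262 or 22 and 216 without WENRC 1 or 2, and 363 and 5152 or 366 and 5176 without ENRI 1 or 2. A lone library was assumed to vary like the other groups. With a replicate block they were 115 and 1465; the RANKL numbers are not mouse numbers, so RANKL and WENRC share only a number. Quantile scaling gave 163 and 2171 and recentring on the upper quartile 169 and 2336, and the share of nearest calls that were higher in RANKL fell from 65.1% to 50.9% and 49.1% (all genes 70.2% to 58.7% and 53.3%). With no filter the counts were 118 and 1672. Of the nearest genes, 43 were called beyond 100 kb of every region and 85 with 2 or more regions. In alternatives chosen after seeing the data, the first gene on each side gave 220 of 1740 (12.6%) and regions with no RANKL-higher region within 10 kb 138 of 990 (13.9%).

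Of the 35 named genes that the rule chose and that were tested, 23 were called, and all 23 lost the call without either RANKL library, 12 without WENRC 1 and 11 without WENRC 2; 0 of them changed sign in the 12 settings. Gas7, Zc3h12c, Lipg, Zfp503 and Tox3 also lost theirs under other scalings, filters, tools or the block. Of the 12 not called, 5 (Fut8, Aebp2, Cdca7, Olfm4 and Slc12a2) were called in some setting and 3 changed sign. In the authors' deposited table the log2 differences of Btbd11 (4.50), Gas7 (3.71) and Bmp2 (3.36) were also larger than in the fit. Those of Crnde (-4.05), Zc3h12c (-3.19), Zfp503 (-2.82) and Lipg (-2.58) were larger in size as well. Turned from log2 values into plain ratios, each of these differences was larger by a factor over 1.5. The number of regions was 1141 at a fold of at least 4, 1454 at an authors' p of at most 1e-06 and 2043 beyond 100 kb. The share in a repeat was 34.5% at a fold of at least 4 and 39.6% at 5 to 50 kb. The share near a RANKL-higher region was 2.75% within 1 kb and 47.7% within 50 kb. Depth limits single regions: with a median of 6 RANKL tags, a region's fold carries at least its counting error. With no replicate of WENRC, the spread between cultures comes on top and was not measured.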
